A study of Homo sapiens with 3 samples.

Results

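Long non-coding RNAs that carry small nucleolar RNAs (snoRNAs) or microRNAs within their genes were examined in NCI-H1975, an established human lung adenocarcinoma line. The members are the small nucleolar RNA host genes (symbols SNHG followed by a number), the microRNA host genes (symbols MIR to HG) and GAS5, which has the older symbol SNHG2. They were found by symbol, without the use of measured values, and 111 of the 60880 gene rows of the count table matched. Of these, 29 were SNHG genes, counted here with GAS5, and 82 were MIRHG genes. Anlotinib is an inhibitor of several receptor tyrosine kinases, and the study set wild-type cells against cells with acquired resistance to it, in RNA-seq and in ATAC-seq. RNA-seq was also made of resistant cells in which TFAP2A had been knocked down. Values come from 1 RNA-seq library, replicate 2 of the wild-type cells, which per the labels were grown in serum-containing medium with antibiotics, with no drug named. No resistant or knockdown cells were analysed here, so no contrast between cell states was made, and no value has a replicate check.

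A snoRNA host is transcribed and spliced like a messenger RNA, and the snoRNAs are trimmed out of its introns. Box C/D snoRNAs guide ribose methylation and box H/ACA snoRNAs guide pseudouridylation, mainly of ribosomal RNA, so these genes are tied to ribosome production. The spliced host RNA often has no known protein product and is commonly degraded by nonsense-mediated decay, as is known for GAS5. A microRNA host is cut in the nucleus by the DROSHA-DGCR8 complex to free a hairpin, which DICER1 then trims to the mature microRNA. Reads of a host therefore measure the long transcript and neither the snoRNA nor the mature microRNA.

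Many snoRNA hosts are known to belong to the 5′ terminal oligopyrimidine class, whose transcripts start with a C followed by a run of pyrimidines (C or T) and whose translation follows growth signals. The RefSeq start was searched, on the strand of the gene, for a C at the first transcribed base followed by at least 4 pyrimidines. Of the 29 SNHG genes, 25 had a start in the RefSeq promoter table, and the letters stood at the start of 6, or 24%. The same held for 3 of 62 MIRHG genes, or 4.84%, and for 4.04% of the first listed starts of 27305 genes. Anywhere in the 30 bases from 10 before to 20 from the start, the same letters occurred in 15 SNHG genes, or 60%, in 28 MIRHG genes, or 45.2%, and in 38.2% of all genes. The 6 are shown because their letters are a feature that the symbols did not select. Each line gives 10 bases before and 20 from the start, 5′ to 3′ on the strand of the gene, with the run of pyrimidines in capitals. The run of SNHG18 is 21 bases long and continues past the last base shown. On RefSeq GRCh38.p14 they lie at chr6:85678714-85678743 (minus strand, SNHG5), chr6:31834906-31834935 (plus, SNHG32), chr5:139274091-139274120 (plus, SNHG4), chr1:28581854-28581883 (minus, SNHG12), chr16:2155339-2155368 (minus, SNHG19) and chr5:9546190-9546219 (plus, SNHG18).
SNHG5: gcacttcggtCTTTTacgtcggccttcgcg
SNHG32: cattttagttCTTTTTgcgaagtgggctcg
SNHG4: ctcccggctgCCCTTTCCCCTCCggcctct
SNHG12: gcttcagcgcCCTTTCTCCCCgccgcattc
SNHG19: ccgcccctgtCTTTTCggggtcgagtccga
SNHG18: gccgcgccgcCTCCTCCTCCTCCTCCTCCC
The start listed for SNHG12 lies inside the span of the gene and not at its edge. All 6 were detected, with 134 to 2203 reads and a median of 581.5. Of the other 19 SNHG genes with a start, 16 were detected at 10 or more reads, with a median of 1028. These 19 ran from 0 to 8556 reads, so the ranges overlapped. Of all 29 SNHG genes 26 were detected, against 29.4% of all gene rows. A gene without the letters at this start, such as GAS5 or SNHG1, may have other starts in these cells, which counts per gene do not show.

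The microRNAs inside the MIRHG genes with the most reads, and some whose seed is shared between hosts, show what these transcripts could give rise to. Mature sequences were taken from RefSeq (GRCh38.p14) for hairpins inside a MIRHG gene on its strand, and 27 detected hosts had at least 1. The seed, bases 2 to 8 and the part that pairs with targets, is in capitals. MIR9-1HG holds miR-9, known for its role in neural progenitors (chr1:156420392-156420414, minus). MIR23AHG holds the miR-23a, miR-27a and miR-24 cluster, here at chr19:13836595-13836615, chr19:13836447-13836467 and chr19:13836289-13836310 (all minus), and MIR4435-2HG holds miR-4435 (chr2:111321061-111321082, minus).
hsa-miR-9-5p: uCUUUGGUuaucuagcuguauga
hsa-miR-23a-3p: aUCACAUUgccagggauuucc
hsa-miR-27a-3p: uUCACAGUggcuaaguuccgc
hsa-miR-24-3p: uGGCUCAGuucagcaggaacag
hsa-miR-4435: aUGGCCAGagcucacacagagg

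Among 74 seeds in detected hosts, 5 occurred in more than 1 host. The let-7 seed was carried by 4 of them, MIR100HG, MIRLET7BHG, MIRLET7IHG and MIRLET7A1HG. The let-7 microRNAs are known to repress growth genes such as RAS and HMGA2. Copies lie at chr11:122146568-122146589 (minus, let-7a in MIR100HG), chr22:46113691-46113712 (plus, let-7b), chr12:62603691-62603712 (plus, let-7i), chr9:94176353-94176374 (plus, let-7f) and chr9:94178841-94178862 (plus, let-7d).
hsa-let-7a-5p: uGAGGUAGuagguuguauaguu
hsa-let-7b-5p: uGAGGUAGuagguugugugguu
hsa-let-7i-5p: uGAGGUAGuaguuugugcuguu
hsa-let-7f-5p: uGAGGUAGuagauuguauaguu
hsa-let-7d-5p: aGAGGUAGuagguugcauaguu
The 4 let-7 hosts had 380, 311, 140 and 49 reads in the order named above, 880 together. MIR9-1HG with 1420 reads and MIR9-3HG with 29 share the seeds of miR-9-5p and miR-9-3p. MIRLET7BHG and MIRLET7A1HG also share the seed of let-7a-3p. The last shared seed is that of miR-92a-3p in MIR17HG, with 34 reads, and miR-367-3p in MIR302CHG, with 10.

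The library held 25012733 counts, so 1 count was 0.04 CPM (counts per 1000000 library counts), and a count of 0 has a one-sided upper limit of 3 counts, or 0.12 CPM. Intervals are exact 95% Poisson or binomial intervals and cover counting error only, because 1 library has no replicate spread. The reads carry no molecular identifiers and can repeat a molecule, so the intervals may be too narrow even for counting error. Transcript lengths were not used, so CPM orders genes by reads and not by molecules. The line's epithelial identity was visible in KRT7, KRT8, KRT18, KRT19, CDH1 and EPCAM, which had 4961 to 132533 reads, and the lung lineage genes NKX2-1, NAPSA and SFTPB had 2926, 595 and 62. Of the markers of other cell types reported here, PTPRC, CD3E and TYROBP had 2, 1 and 1 reads, COL3A1 had 2, and DCN, LUM, CLDN5, TIE1, MYH7, CKM and MYOD1 were at 0. Neuronal markers were mixed, with 516 reads for SYT1, 91 for MAP2 and 3 for RBFOX3.

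SNHG genes were detected almost throughout, and MIRHG genes in fewer than 4 of 10 cases. With 10 counts as the minimum, 57 of 111 members (51.4%) were detected, against 29.4% of all gene rows, 27.4% of other lncRNA rows and 69.7% of protein-coding rows. Here and below, lncRNA rows are the 5160 rows whose symbol RefSeq types as lncRNA. Non-coding genes without such a symbol were left out, and protein-coding rows were found in the same way. The SNHG genes contributed 26 of 29 and the MIRHG genes 31 of 82. Detected SNHG genes had a median of 718 reads, or 28.7 CPM, and detected MIRHG genes 113 reads, or 4.52 CPM. The same median was 46 reads for other lncRNAs, 660 for protein-coding genes and 360 for all detected genes. No test was made, since genes of a class are not replicates. The classes overlapped, with 15 to 8556 reads in detected SNHG genes and 10 to 1420 in detected MIRHG genes.

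**Figure D1:**
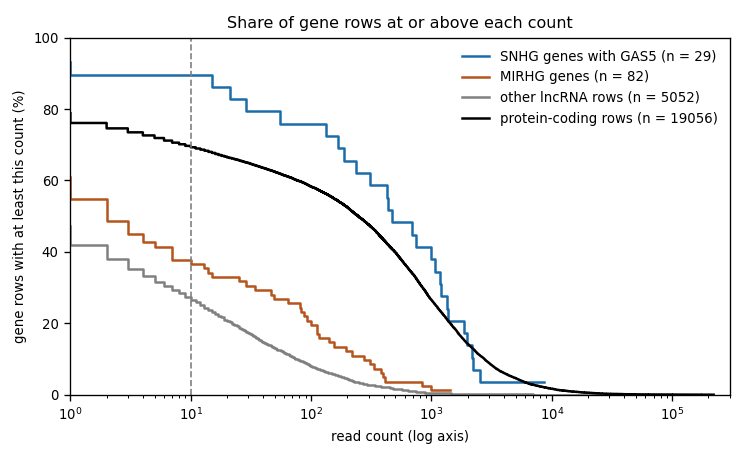
Percent of gene rows (vertical axis) with at least the read count on the horizontal log axis, for the 29 SNHG genes with GAS5, 82 MIRHG genes, 5052 other lncRNA rows and 19056 protein-coding rows of 1 library. The dashed line is the minimum of 10 counts, where the SNHG curve lies at 26 of 29 genes and the MIRHG curve at 31 of 82, above the curve of other lncRNAs.

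All members together took 37587 reads, or 0.15% of the library (95% interval 0.149% to 0.152%), and 13.2% of the reads on lncRNA rows (13.0% to 13.3%). SNHG genes held 80.8% of the members' reads (80.4% to 81.2%). The 5 members with the most reads, SNHG29, GAS5, SNHG5, SNHG7 and SNHG17, held 46.3% (45.8% to 46.9%). Of the 50 lncRNA rows with the most reads, 15 were members. Over all 5160 lncRNA rows, 5052 were not members.

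SNHG29, a host of box C/D snoRNAs, stood above every other member. It had 8556 reads (ENSG00000175061.17_2), or 342 CPM (335 to 349), above 97.7% of detected genes. Among lncRNA rows it ranked 3, after MALAT1 with 30185 reads and NEAT1 with 11021, both nuclear RNAs. SNHG29 had 22.8% of the members' reads (22.3% to 23.2%) and 3.38 times (3.23 to 3.54) the reads of GAS5, a ratio of reads and not of molecules.

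GAS5, named for its rise in growth-arrested cells and known to bind the glucocorticoid receptor, came next. Its 2531 reads (ENSG00000234741.7_5) gave 101 CPM (97.3 to 105), above 88.1% of detected genes. The genes with the nearest counts were NSFL1C with 2533 and PLCB3 with 2529, both protein-coding.

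The next hosts lay close together. SNHG5, which carries the SNORD50 pair, had 2203 reads (ENSG00000203875.11_3), or 88.1 CPM (84.4 to 91.8). SNHG7, which carries the H/ACA pair SNORA17A and SNORA17B, had 2170 reads (ENSG00000233016.6_4), or 86.8 CPM (83.1 to 90.5). The intervals of SNHG5 and SNHG7 overlapped, so their order is within counting error. SNHG17, host of the SNORA71 genes, had 1960 reads (ENSG00000196756.11_5), or 78.4 CPM (74.9 to 81.9). The SNORD1 host SNHG16 followed with 1868 reads, or 74.7 CPM (71.3 to 78.1), overlapping SNHG17.

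**Figure D2:**
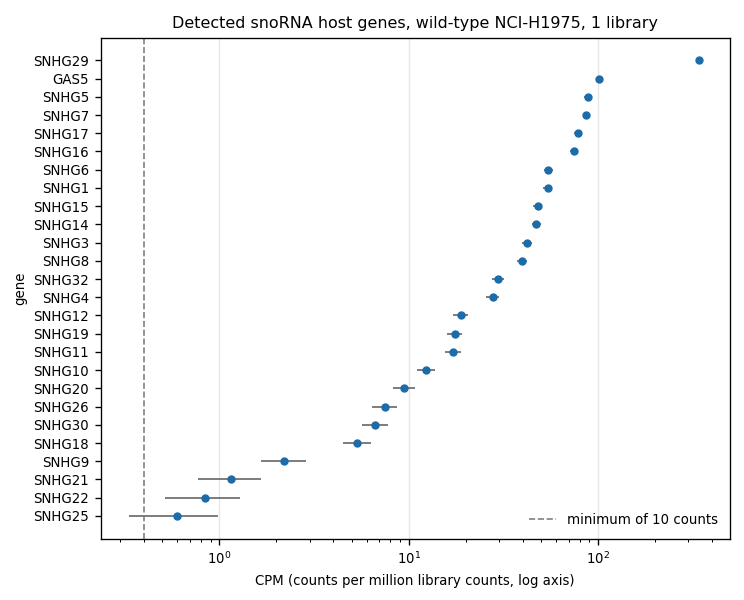
CPM on a log axis for the 26 detected SNHG genes with GAS5 in 1 wild-type library; points are values, bars exact 95% Poisson intervals and the dashed line the minimum of 10 counts. SNHG29 at 342 CPM stands apart from GAS5 at 101 CPM, and the rest run down to SNHG25 at 0.6 CPM.

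A group of 5 further SNHG genes had between 1060 and 1365 reads. SNHG6, host of SNORD87, had 1365, and SNHG1, the host of a row of C/D snoRNAs that includes SNORD25 to SNORD31, had 1359. SNHG15, host of SNORA9, had 1201. SNHG14, the very long imprinted transcript of the Prader-Willi region that carries the SNORD116 genes, had 1182 reads. SNHG3, host of the SNORA73 genes that act in ribosomal RNA processing, had 1060. SNHG6 and SNHG1 differed by less than counting error, as did SNHG15 and SNHG14.

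SNHG8 had 996 reads, SNHG32 had 743 and SNHG4 had 693. SNHG12, SNHG19 and SNHG11 had 470, 437 and 428, with overlapping intervals of 17.1 to 20.6, 15.9 to 19.2 and 15.5 to 18.8 CPM. SNHG10 had 309 reads and SNHG20 had 237. SNHG26, SNHG30 and SNHG18 had 187, 167 and 134. After a step from SNHG18 to SNHG9 that was larger than counting error, SNHG9, SNHG21, SNHG22 and SNHG25 were lowest with 55, 29, 21 and 15 reads. SNHG31 had 1 read, and SNHG27 and SNHG28 were at 0.

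Hosts were grouped by the genes in their RefSeq span that RefSeq types as snoRNA. The 12 hosts of C/D snoRNAs alone were all detected, with a median of 962.5 reads and a range of 15 to 8556. Of 9 hosts of H/ACA snoRNAs alone, 8 were detected, with a median of 1028 reads and a range of 55 to 2170. GAS5 and SNHG12 held both kinds. SNHG28, at 0, held a predicted snoRNA gene of no given kind. Of the 5 SNHG genes with no gene of that type in their span, 4 were detected, and these had a median of 133 reads and at most 309. This group depends on the RefSeq type. SNHG10 and SNHG22 in it overlap the small Cajal body RNA genes SCARNA13 and SCARNA17, which are typed as other non-coding RNA. Among detected hosts, the range of the H/ACA hosts lay inside that of the C/D hosts. The undetected H/ACA host, SNHG31, had 1 read. All 5 genes without a listed snoRNA lay below both medians, which are those of detected hosts.

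Of the MIRHG genes, MIR9-1HG had the most reads, with 1420 (ENSG00000125462.16_4), or 56.8 CPM (53.9 to 59.8), above 78.2% of detected genes. This gene is best known from brain. Other hosts of neural microRNAs were low: MIR9-3HG had 29 reads, MIR137HG had 13, and MIR124-1HG and MIR124-2HG were at 0. The part of the neuronal markers SYT1 and MAP2, given above, in this value was not tested.

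MIR23AHG followed with 1000 reads (ENSG00000267519.6_6), or 40.0 CPM (37.5 to 42.5). MIR4435-2HG, also called MORRBID and known for the survival of short-lived myeloid cells, had 838 (ENSG00000172965.15_5), or 33.5 CPM (31.3 to 35.9). MIR1915HG had 410 reads (ENSG00000204682.5_2), or 16.4 CPM (14.8 to 18.1), and MIR22HG, host of the growth-restraining miR-22, had 393 (ENSG00000186594.14_3), or 15.7 CPM (14.2 to 17.3). The first 3 were separated from each other and from the rest beyond counting error, while MIR1915HG and MIR22HG were not separated.

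**Figure D3:**
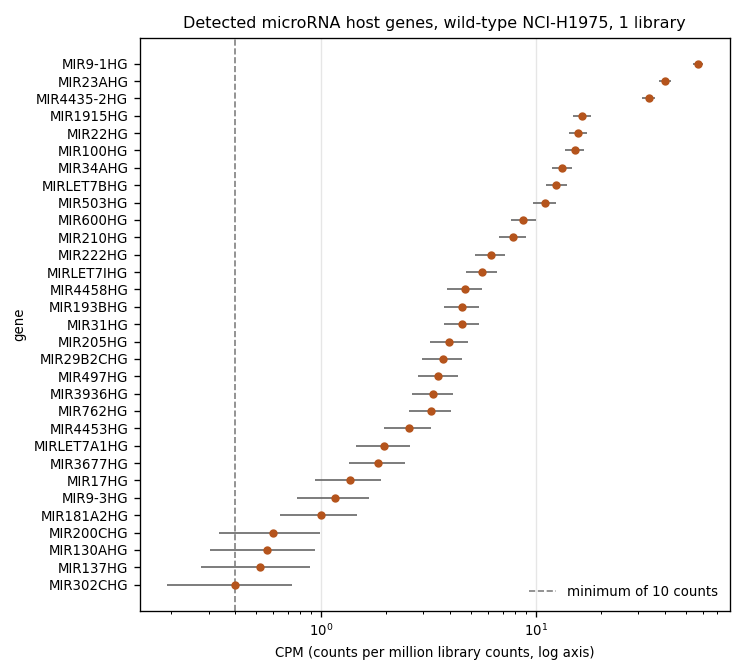
CPM on a log axis for the 31 detected MIRHG genes in 1 wild-type library; points are values, bars exact 95% Poisson intervals and the dashed line the minimum of 10 counts. MIR9-1HG, MIR23AHG and MIR4435-2HG lie at 33.5 CPM or more and all others at 16.4 CPM or less.

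MIR100HG, host of miR-100, let-7a and miR-125b, had 380 reads. MIR34AHG, whose miR-34a is a well-known p53 target, had 332, and MIRLET7BHG had 311. MIR503HG had 275 reads. MIR210HG, host of the hypoxia-induced miR-210, had 195 reads, or 7.8 CPM (6.74 to 8.97). MIR222HG, host of miR-221 and miR-222, which share a seed and target CDKN1B, had 154. MIR31HG and MIR193BHG had 113 each.

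MIR17HG, host of the oncogenic miR-17-92 cluster, had 34 reads, or 1.36 CPM (0.941 to 1.90), although its span holds 6 microRNA genes. MIR205HG, typical of basal and squamous epithelium, had 99. MIR200CHG, whose miR-200c and miR-141 maintain the epithelial state, had 15 reads, or 0.6 CPM (0.336 to 0.989), in cells with 10561 reads of the epithelial cadherin CDH1. These low counts describe the long transcript, which is cut as the microRNA is made, and say nothing of the mature microRNA.

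The other detected MIRHG genes had 10 to 219 reads. MIR600HG had 219, MIRLET7IHG had 140, MIR4458HG had 117 and MIR29B2CHG had 92. MIR497HG, MIR3936HG and MIR762HG had 88, 83 and 81, and MIR4453HG had 64. MIRLET7A1HG and MIR3677HG had 49 and 46, and MIR181A2HG had 25.

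Close to the minimum, MIR130AHG had 14 reads and MIR302CHG, host of the miR-302 cluster of pluripotent cells, had 10. Just under it, MIR194-2HG, MIR4733HG and MIR924HG had 7 each and MIR3659HG had 5. In all, 19 MIRHG genes had 1 to 9 reads and 32 were at 0. Hosts known from other tissues were among these. MIR155HG, abundant in activated lymphocytes, had 2 reads, and MIR142HG, of blood cells, had 2. MIR223HG of myeloid cells, MIR122HG of liver, and MIR1-1HG and MIR133A1HG of muscle were at 0. MIR99AHG, a host of miR-99a and let-7c, was at 0 as well.

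RefSeq places 143 snoRNA or microRNA genes inside 25 of the SNHG genes and 123 inside 77 of the MIRHG genes. Rows for 94 and 70 of them could be matched by name. The matched rows in SNHG genes held 207 reads and those in MIRHG genes 113, and 75 and 55 of the rows were at 0. The 16 SNHG genes and 52 MIRHG genes that hold these matched rows had 13235 and 5709 reads themselves. How well this library recovers such short RNAs was not tested, so the nested counts do not give the levels of the small RNAs. In SNHG14, 71 of its 84 nested snoRNA genes had a matched row, and these held 9 reads together, against 1182 for the host. Most of the 94 matched rows in SNHG genes, and most of the 75 at 0, therefore belong to SNHG14. Its rows are mainly the numbered SNORD115 and SNORD116 genes, and whether reads of such repeated genes could be told apart was not tested. In the other SNHG genes, most matched rows were above 0.

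SNHG25 was the exception among nested rows of 10 or more reads: its SNORD104 had 57 reads and the host 15. MIR762 had 39 reads inside MIR762HG with 81. SNORA71B, SNORA71C and SNORA71A had 29, 26 and 16 inside SNHG17, near-identical copies whose separate values are uncertain. SNORA73B had 29 inside SNHG3. The assignment of reads that overlap both host and nested gene is not stated in the labels, and its part in these values was not tested.

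**Figure D4:**
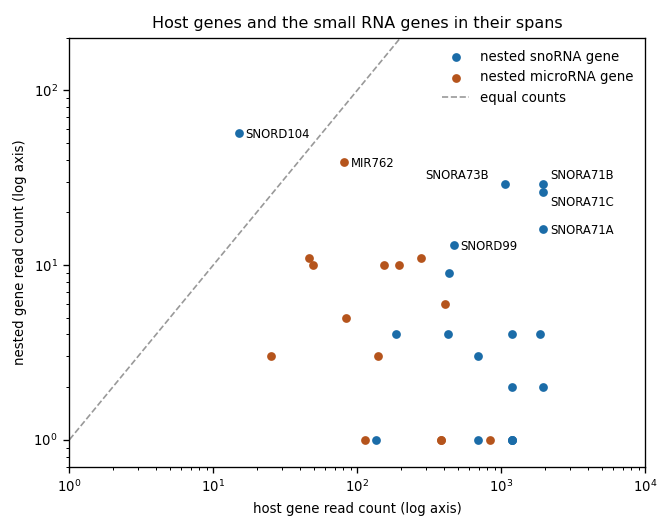
Read count of each nested snoRNA or microRNA gene with at least 1 read (vertical log axis) against the read count of its host (horizontal log axis) in 1 library; the dashed line marks equal counts. SNORD104, with 57 reads inside SNHG25 with 15, is above that line, and MIR4725, with 1 read inside MIR365BHG with 0, cannot be drawn.

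Neighbouring genes bear on these counts, because the strand setting of the counting and its handling of shared reads are not given. Of the 57 detected members, 25 overlap another gene with a matched row in RefSeq, and 19 overlap a protein-coding gene, 10 of them known to be on the opposite strand. No strand was given for the overlaps of SNHG29 (LRRC75A, 124 reads), SNHG6, MIR100HG and MIR181A2HG. In 5 cases the overlapping gene had at least 10 times the reads of the member: SNHG20 (SEC14L1, 4095 reads), SNHG22 (MYO5B, 2298), MIR762HG (BCL7C, 1108), MIR302CHG (LARP7, 677) and MIR181A2HG (NR6A1, 327). SNHG3 overlaps RCC1 with 3689 reads on its own strand, and MIR600HG overlaps STRBP with 839 reads on its own strand. SNHG14 runs opposite to UBE3A, which had 1087 reads. The counts of these members are uncertain for these reasons. SNHG20, SNHG3 and MIR600HG share a strand with SEC14L1, RCC1 and STRBP, so there the handling of shared reads matters and the strand setting does not. No overlapping gene with 100 or more reads was found for MIR9-1HG, MIR23AHG or SNHG5.

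The proteins that assemble and use the small RNAs were read from lists of pathway genes. For these and the 2 protein lists below, the share of all protein-coding rows detected at the same minimum was 69.7%. All 17 snoRNP and assembly genes were detected, with a median of 1845 reads and a range of 150 to 6221. NOP56, a core protein of C/D particles, had 6221 reads, or 249 CPM (243 to 255), the Cajal body and nucleolar chaperone NOLC1 had 5911 and the assembly ATPase RUVBL2 had 5308. DKC1, the pseudouridine synthase of H/ACA particles, had 4559, and FBL, the methyltransferase of C/D particles, had 2111. The assembly factors NAF1 and NUFIP1 were lowest with 216 and 150.

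All 14 microRNA processing genes were detected, with a median of 1636.5 reads and a range of 201 to 5947. RAN, which also serves general nuclear transport, had 5947 reads, the silencing protein TNRC6A had 2519 and the hairpin exporter XPO5 had 2124. DROSHA, DGCR8 and DICER1 had 2111, 1627 and 1962. AGO2, the slicing Argonaute, had 1486 reads, AGO1 had 1107, AGO4 had 416 and AGO3 had 405.

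All 15 nonsense-mediated decay genes were detected, with a median of 1948 reads and a range of 202 to 8085. SMG5 led with 8085 reads, followed by the helicase UPF1 with 6212 and its kinase SMG1 with 3933. The near-identical exon junction genes MAGOH and MAGOHB had 449 and 202, and their separate values are uncertain. The median detected gene of the library had 360 reads, so all 3 list medians were above it, as was the protein-coding median of 660.

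Among host lncRNAs with other names, 3 of 4 snoRNA hosts were detected: ZFAS1 had 2399 reads, or 95.9 CPM (92.1 to 99.8), DANCR had 620 and EPB41L4A-AS1 had 353, while the imprinted MEG8 was at 0. Of 7 microRNA hosts 5 were detected. Of lncRNA rows outside the members, 27.4% were detected at the same minimum. PVT1 had 3257 reads and FTX, of the X-inactivation centre, had 919. H19, DLEU2 (host of miR-15a and miR-16) and LINC00461 had 99, 74 and 17, and CARMN and DNM3OS, known from smooth muscle and fibroblast-like cells, were at 0.

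**Figure D5:**
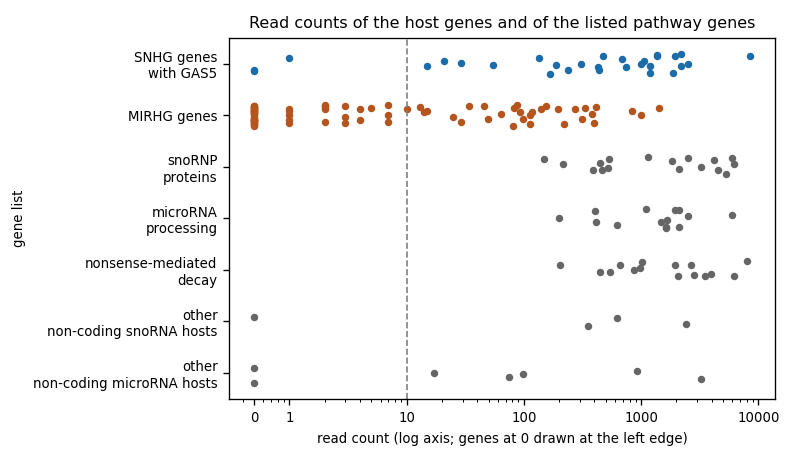
Read counts on a log axis, with genes at 0 drawn at the left edge, for the 29 SNHG genes with GAS5, 82 MIRHG genes and 5 lists of related genes in 1 library; each point is a gene and its vertical offset is arbitrary. The snoRNP, microRNA processing and decay genes all lie at 150 reads or more, while MIRHG genes spread from 0 to 1420.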

How the data were processed

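One RNA-seq library of wild-type NCI-H1975 cells (replicate 2) was used. The file deposited by the authors holds raw whole-number read counts per Ensembl gene, not normalised. Per the labels' protocols, a directional NEBNext library was made from total RNA extracted with Trizol. The submitters' processing notes name STAR, featureCounts and hg19 among other tools; poly(A) selection or ribosomal RNA depletion, the annotation, strand setting and handling of shared reads are not given in sources used here. Of 60880 identifiers, 56373 matched a current symbol. RefSeq (GRCh38.p14) gave gene types, nesting, overlaps and sequences, and no hg19 coordinate was used. The RefSeq gene table has no strand, so snoRNAs were nested by span alone and microRNAs also by strand.

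Counts were divided by the library total to give CPM, with exact (Garwood) Poisson intervals, exact (Clopper-Pearson) binomial intervals for shares and the matching conditional interval for the ratio. With 1 library no test between groups was possible. The symbol rule for members used no measured value, but it and the lists were chosen with earlier results of these data known. Named genes were all detected members, the 5 highest of each class with interval and identifier, members within 5 counts of the minimum, tissue-typical hosts, and from each list the highest 3 and those under 10 counts; other list members, the other hosts at 0 or near it and the overlapping genes were added after their counts were seen. Of the marker lists, PECAM1 matched no row by name and another gene is not reported here. Code was tested on simulated Poisson counts. The software was SciPy 1.17.1 and pandas 2.3.3 under Python 3.11.15, with Matplotlib 3.10.9 for figures.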

Additional observations from a re-analysis of the deposited data

How the results depend on the processing

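Detected numbers stayed within 1.5 times under minimums of 1 count, 50 counts or 1 CPM and after random thinning of all counts to 50%, for all members, SNHG genes and each pathway list. The exception was MIRHG genes, with 50 at a minimum of 1 count. With genes of at least 1 count the median became 3.96 CPM for members and 1.26 CPM for MIRHG genes, and over all 111 members it was 0.52 CPM. The members' share of the library became 0.159% without mitochondrial genes, 0.162% without the 10 highest genes, 0.149% after thinning and 0.172% when 14 lncRNAs with a matching older symbol were added. That addition moved the SNHG share of members' reads to 72.2% and the share of the 5 highest to 43.6%. These shifts follow from the smaller totals, the smaller sample and the added genes. Of 10 members' CPM values, 6 left their counting interval without mitochondrial genes, a common factor of 1.06, and 3 after thinning. Nesting on either strand gave the same 102 hosts. Counts per kilobase were not run, because exon lengths were not used. No paired analysis was possible because a single library was analysed. Depth limits the members under 50 reads most, and cell states cannot be compared.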

Other observations

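Among lncRNA rows outside the host genes, those with read numbers between SNHG29 and GAS5 include RNAs that are well known from epithelial tumours, chosen here after their counts were seen. NORAD, a cytoplasmic RNA that binds PUMILIO proteins, had 6931 reads, AFAP1-AS1 had 4431 and UCA1, first described in bladder carcinoma, had 4181. GAS6-AS1, MIF-AS1 and LINC00963 had 3825, 3380 and 3177. KRT7-AS had 4635 reads beside 132533 for KRT7, and reads of such antisense pairs cannot be told apart without the strand setting. SNHG29 alone, with 8556 reads, had more than the 7210 of all 82 MIRHG genes together.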
